A study of Homo sapiens with 24 samples.

Results

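The small nucleolar RNA host genes are long non-coding genes whose introns carry small nucleolar RNAs (snoRNAs). Members were taken by name: all genes called SNHG followed by a number, together with GAS5, DANCR and ZFAS1, whatever biotype the files gave them. This gave 25 members of 58174 listed genes, 12 of them listed as processed transcripts, 6 as antisense, 6 as lincRNA and 1 as sense intronic. Total RNA depleted of ribosomal RNA was sequenced from 4 human tumour lines that had received either control siRNA (siC) or an siRNA pool against IGF2BP1 (siI1), with 3 libraries per group and 24 in all. A549 comes from a lung adenocarcinoma, ES2 from an ovarian carcinoma, MV3 from an amelanotic melanoma and PANC1 from a pancreatic ductal adenocarcinoma. Cells were harvested 72 h after transfection in A549, ES2 and MV3 and after 96 h in PANC1, so that in PANC1 the line and the time cannot be told apart. The study's methods call the 3 libraries of a condition biological replicates without describing separate cultures, and the p-values measure the spread between these libraries.

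A host gene is transcribed as 1 precursor, from which the exons are spliced together while the snoRNAs are cut out of the introns. Box C/D snoRNAs guide the methylation of ribosomal RNA, box H/ACA snoRNAs guide its pseudouridylation, and the related Cajal body RNAs act on spliceosomal RNAs. The spliced host RNA often holds only short reading frames, is read by ribosomes and is then removed by nonsense-mediated decay, as is well known for GAS5. GAS5 and some other hosts begin with a run of pyrimidines like that of ribosomal protein mRNAs, the 5' terminal oligopyrimidine (5'TOP) motif, which ties translation to growth signals. IGF2BP1 is an RNA-binding protein of the embryo and of tumours that binds many mRNAs and shields them from decay.

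Values are FPKM, in which the reads of a gene are divided by its length and by the size of the library. Libraries held 3105215 to 4553326 reads assigned to genes in A549, 6421764 to 8419467 in ES2, 15572492 to 20082702 for MV3 and 6532175 to 8472851 for PANC1, so a given FPKM rests on the fewest reads in A549. In PANC1 the FPKM of all genes summed to 526337 to 756438 in siC and to 977547 to 1191710 in siI1 libraries, and the part of this difference in the PANC1 results was not tested beyond the rescaling given with them. IGF2BP1 itself fell in every line, from 39.7 ± 0.0742 to 15.6 ± 0.674 FPKM in A549 (SD, n = 3 in each group here and throughout) and from 11.1 ± 0.150 to 2.78 ± 0.080 in PANC1. On the log2 scale the fall was -1.32 for A549, -1.55 for ES2, -1.52 for MV3 and -1.83 for PANC1, with no overlap of groups. Of the markers of the tissues of origin, the alveolar genes NKX2-1, SFTPB and SFTPC were at 0 in the A549 siC mean, the melanocyte genes SOX10 and TYR were at 0 in MV3, and WT1, PAX8 and MUC16 were at most 0.157 FPKM in ES2. Of the ductal genes, KRT19 was at 617 FPKM in PANC1, 117 in A549 and 0 in ES2, SOX9 at 18.2 in PANC1, 8.06 in A549 and 22.5 in ES2, and KRT7 at only 2.88 in PANC1 beside 399 in A549 and 103 in ES2.

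Most host transcripts were well expressed. The median member had 9.60 FPKM in siC libraries of A549, 17.8 in those of ES2, 7.42 in those of MV3 and 7.51 in those of PANC1, against 4.11 to 4.41 for the median gene tested in the 4 lines. A few members carried much of the signal, and the 4 highest held 42.6% to 50.9% of the summed FPKM of all members in siC libraries. In ES2, GAS5 (114 ± 2.83 FPKM), SNHG8 (113 ± 10.3) and SNHG6 (112 ± 1.37) had levels within their spread of each other, followed by SNHG19 (99.3 ± 6.65). In MV3, SNHG8 led with 55.3 ± 2.21 FPKM, above SNHG3 (37.0 ± 0.965), SNHG19 (35.9 ± 3.40) and SNHG6 (35.5 ± 0.373). SNHG19 lay within its spread of both neighbours there, while all SNHG3 libraries lay above all SNHG6 libraries. In PANC1 the highest was SNHG16 at 44.8 ± 2.81 FPKM, and in A549 SNHG19 at 52.4 ± 9.18, within its spread of SNHG6 at 47.6 ± 2.02. The tables of the lines were normalised separately, so these orders hold within a line. At the low end, SNHG18 was listed at 0 in all libraries of A549 and PANC1 and SNHG14, the long host of the Prader-Willi region, had 0 to 3 reads per library in MV3. Both were left out of the tests in those lines.

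Of the 10 members past the threshold in at least 2 lines, 9 are shown here by the sequence around their start, because the start is where a 5'TOP motif would lie. Each run has 10 bases before and 30 bases from the first base of the GENCODE 44 canonical transcript (hg38), 5' to 3' on the gene's strand. Capitals mark the longest run of C or T found within 20 bases on either side of the start, as far as it lies in the printed stretch. Of equal runs only the first is marked, and runs are cut at the edge of this window. GAS5 is at chr1:173867960-173867999 (minus strand), SNHG1 at chr11:62855893-62855932 (minus), SNHG3 at chr1:28505970-28506009 (plus), SNHG4 at chr5:139274121-139274160 (plus) and SNHG5 at chr6:85678719-85678758 (minus). SNHG8 is at chr4:118278698-118278737 (plus), SNHG15 at chr7:44986932-44986971 (minus), SNHG16 at chr17:76557765-76557804 (plus) and SNHG17 at chr20:38435352-38435391 (minus).
GAS5: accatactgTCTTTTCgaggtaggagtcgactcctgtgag
SNHG1: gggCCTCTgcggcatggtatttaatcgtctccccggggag
SNHG3: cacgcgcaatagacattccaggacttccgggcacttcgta
SNHG4: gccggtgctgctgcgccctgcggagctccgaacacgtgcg
SNHG5: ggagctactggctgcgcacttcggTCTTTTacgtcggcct
SNHG8: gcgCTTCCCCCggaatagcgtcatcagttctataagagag
SNHG15: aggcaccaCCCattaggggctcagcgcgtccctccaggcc
SNHG16: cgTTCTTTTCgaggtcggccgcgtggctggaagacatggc
SNHG17: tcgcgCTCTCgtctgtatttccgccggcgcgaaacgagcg

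A run of at least 8 C or T, in any order and on the transcript's own strand, was present at 4 of 25 member starts in this annotation (16%), against 16.55% of protein-coding genes and 15.54% of all genes. Ribosomal protein genes held it at 74 of 87 starts (85.06%) and the other known 5'TOP genes at 15 of 16 (93.75%). The run of GAS5 had 7 bases and was not counted, nor were those of 7 in DANCR, SNHG12, SNHG25 and ZFAS1. No share of all genes is given for runs of 7. Of the 4 counted, the runs of SNHG16 and SNHG8 (8 bases each) began at -8 and -7 from the start. That of SNHG7 (11 bases) began at -14 and that of SNHG18 (14 bases) at 6, so none began at the start itself. The result leans on where the start is placed. At RefSeq starts (GRCh38.p14), which were counted first, 6 of 21 members with an entry held such a run (28.57%), against 17.29% of all genes and 79.71% of ribosomal protein genes. The 2 annotations placed the start more than 10 bases apart for 16 of those 21 members, and 3 members, SNHG7, SNHG16 and SNHG18, held the run in both. In GAS5 the RefSeq start lies 1056 bases from the canonical one. Both counts are descriptions of a window and no test was made of either.

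The number of host transcripts that passed the test after knockdown, and their direction, varied with the line, and 10 of 25 passed in none. In MV3, 10 of the 24 members tested fell and 0 rose, while 19.5% of all 16380 genes tested fell and 16.3% rose. In ES2, 9 of 25 fell and 1 rose, while 13% of all 16920 genes fell and 10.5% rose. In A549, 0 of 24 fell and 2 rose, beside 7.83% lower and 5.93% higher among 18411 genes. In PANC1, 2 of 24 fell and 2 rose, beside 13.4% lower and 11.3% higher among 15846 genes. With libraries set to the same FPKM sum, the counts were 19 lower and 0 higher in PANC1 and 4 lower and 2 higher in ES2. In A549 5 rose with voom on the recovered reads and 6 with a minimum of 10 reads. These calls are limma tests on log2(FPKM + 0.5), two-sided, with Benjamini-Hochberg adjusted p under 0.05 across the genes that passed the filter in that line, and a fold on this scale understates the change of low genes. The median log2 fold change over the members tested was 0.12 (A549), -0.16 (ES2), -0.22 (MV3) and 0.01 (PANC1), and over all genes tested it lay between -0.04 and 0.01. Members were on the whole better expressed than the genes beside which they were counted, and no test was made of the shares.

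**Figure D1:**
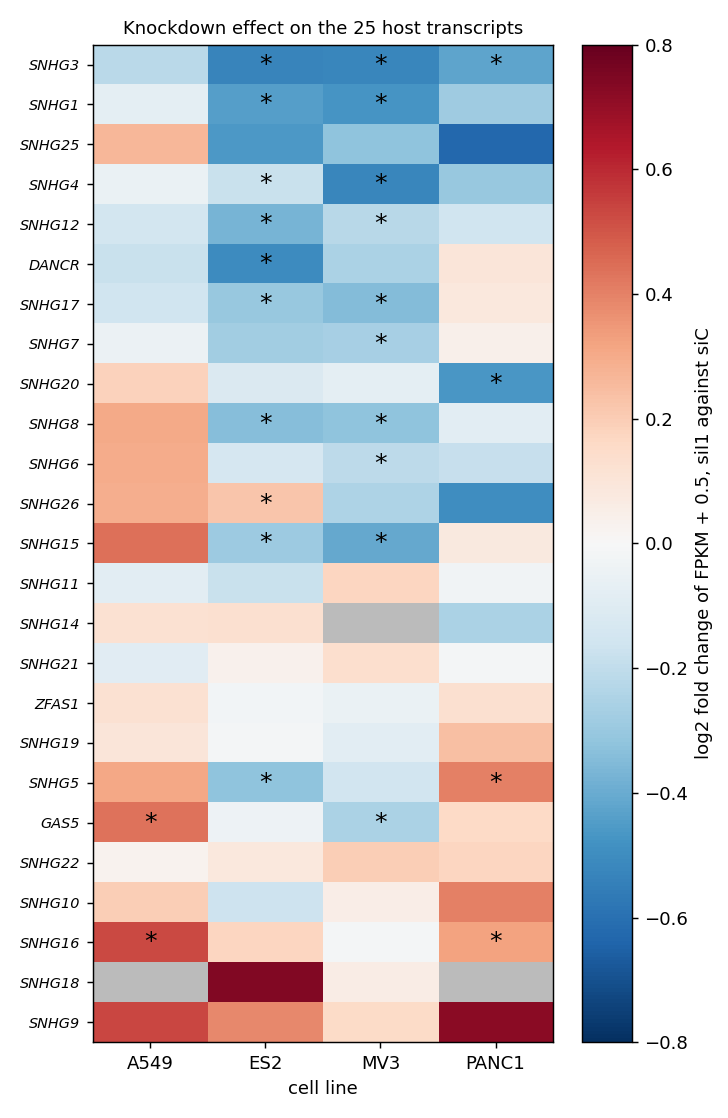
Log2 fold change (siI1 against siC, FPKM + 0.5) of the 25 host transcripts, in rows ordered by their mean over lines, in the 4 lines as columns. Stars mark an adjusted p under 0.05 and grey cells were not tested; the stars stand in ES2 and MV3 mostly on blue (lower) cells, in A549 on 2 red (higher) cells, and in PANC1 on 2 of each.

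Over the lines, 11 members were called lower at least once and never higher, 2 were called higher and never lower, 2 were called in both directions and 10 were not called in any line. Of 12816 genes tested in all lines, 30.1% were called lower at least once and never higher, 24.6% higher and never lower, 6.03% in both directions and 39.3% in no line; of the 23 members tested in all lines these were 11, 2, 2 and 8. The same 7 of 24 members tested in both ES2 and MV3 fell in both, beside 9.43% of 14772 genes, namely SNHG1, SNHG3, SNHG4, SNHG8, SNHG12, SNHG15 and SNHG17. SNHG3 was the only member called in 3 lines, and 0 members were called in all 4. The counts in MV3 were stable, with 10 or 11 lower whichever library was left out. Those in ES2 ranged from 3 lower without siI1 replicate 3 to 8 without siC replicate 1, with 4 without siC replicate 2 or without siC replicate 3. In PANC1 they were 0 lower and 0 higher without siC replicate 1, and at most 3 lower and 2 higher without another library. Of the 9 members lower in ES2, DANCR, SNHG1 and SNHG3 held the call under each of the 16 alternatives run.

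SNHG3, the host of the H/ACA snoRNAs SNORA73A and SNORA73B, fell in ES2, MV3 and PANC1. Its ES2 libraries had 66.3, 61.7 and 67.1 FPKM in siC and 43.4, 48.2 and 43.2 in siI1. In MV3 they had 36.0, 37.0 and 37.9 in siC and 26.2, 25.04 and 25.7 in siI1. PANC1 libraries had 29.3, 24.1 and 29.2 FPKM in siC and 20.3, 20.5 and 20.1 in siI1. The groups were apart in each of these lines, with the 3 siI1 libraries of PANC1 lying closest together. The log2 fold change was -0.53 ± 0.06 (SE) in ES2 (limma adjusted p = 0.00215), -0.52 ± 0.03 in MV3 (limma adjusted p = 0.000190) and -0.42 ± 0.09 in PANC1 (limma adjusted p = 0.0152). In A549 it was -0.22 ± 0.06 (limma adjusted p = 0.0751), also with all siI1 libraries below all siC libraries. The PANC1 call was lost without siC replicate 1 (limma adjusted p = 0.0583, the highest of its alternatives) and without siI1 replicate 1. SNHG3 shares 5.92% of its exon bases with RCC1 on the same strand, and those reads cannot be assigned with certainty.

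SNHG1, which carries 8 box C/D snoRNAs, fell in ES2 and MV3. ES2 libraries had 46.0, 42.6 and 44.4 FPKM in siC and 31.3, 33.3 and 33.2 in siI1, a log2 fold change of -0.44 ± 0.05 (limma adjusted p = 0.00192). MV3 libraries had 23.1, 22.5 and 22.3 in siC and 15.8, 16.9 and 15.9 in siI1, a log2 fold change of -0.47 ± 0.04 (limma adjusted p = 0.000360). All siI1 libraries of both lines lay well below all siC libraries. In PANC1 the siC libraries had 13.5, 13.5 and 18.4 and the siI1 libraries 12.8, 11.5 and 12.2, so the groups did not overlap but the change of -0.29 ± 0.13 did not pass (limma adjusted p = 0.153). In A549 the libraries overlapped and the log2 fold change was -0.08 ± 0.09.

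SNHG4, SNHG8, SNHG12, SNHG15 and SNHG17 also fell in ES2 and in MV3. SNHG4, host of SNORA74A and SNORA74D, had 8.25, 8.65 and 9.37 FPKM in MV3 siC and 6.15, 6.10 and 5.55 in siI1, a log2 fold change of -0.52 ± 0.06 (limma adjusted p = 0.00150). Its change in ES2 was -0.18 ± 0.04 and did not hold under 9 of 16 alternatives, with limma adjusted p = 0.426 when libraries were set to the same FPKM sum. SNHG4 shares 14% of its exon bases in GENCODE 44 with a row named MATR3.1 on the same strand. That is 626 bases, while SNHG4 is listed with a length of 1926, so the share in the model counted is not known. SNHG8, host of SNORA24, had 56.5, 56.6 and 52.7 FPKM in MV3 siC and 42.7, 45.3 and 44.2 in siI1, a log2 fold change of -0.32 ± 0.04 (limma adjusted p = 0.00163). In ES2 SNHG8 had 102, 123 and 114 FPKM in siC and 89.2, 86.3 and 90.8 in siI1, again with no overlap (-0.34 ± 0.07, limma adjusted p = 0.0174). This ES2 call was lost without siC replicate 3 and without any of the 3 siI1 libraries, with limma adjusted p up to 0.0609. On the opposite strand, PRSS12 covers 37.6% of SNHG8 exon bases in GENCODE 44. That is 2487 bases, while SNHG8 is listed with a length of 923, so this share does not hold for the model counted.

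SNHG15, host of the H/ACA snoRNA SNORA9, had 6.92, 6.66 and 6.65 FPKM in MV3 siC and 5.19, 4.51 and 5.17 in siI1, a log2 fold change of -0.41 ± 0.06 (limma adjusted p = 0.00363). SNHG17, which carries the SNORA71 snoRNAs, had 10.3, 9.37 and 9.25 in MV3 siC and 7.13, 8.06 and 7.23 in siI1, a log2 fold change of -0.35 ± 0.07 (limma adjusted p = 0.00791). SNHG12, host of 3 H/ACA snoRNAs and of SNORD99, had 7.79, 8.27 and 7.78 in MV3 siC and 6.58, 6.60 and 7.06 in siI1, a smaller change of -0.22 ± 0.05 (limma adjusted p = 0.0135). In each of these 3 members the MV3 groups did not overlap. The ES2 changes were -0.29 for SNHG15, -0.30 for SNHG17 and -0.37 for SNHG12, and each of these ES2 calls was lost without siC replicate 2, siC replicate 3 or siI1 replicate 3. In all, the ES2 call was lost under 7 of 16 alternatives for SNHG15, 6 for SNHG17 and 9 for SNHG12. Over the alternatives the limma adjusted p in ES2 reached 0.119, 0.125 and 0.155 for SNHG15, SNHG17 and SNHG12.

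**Figure D2:**
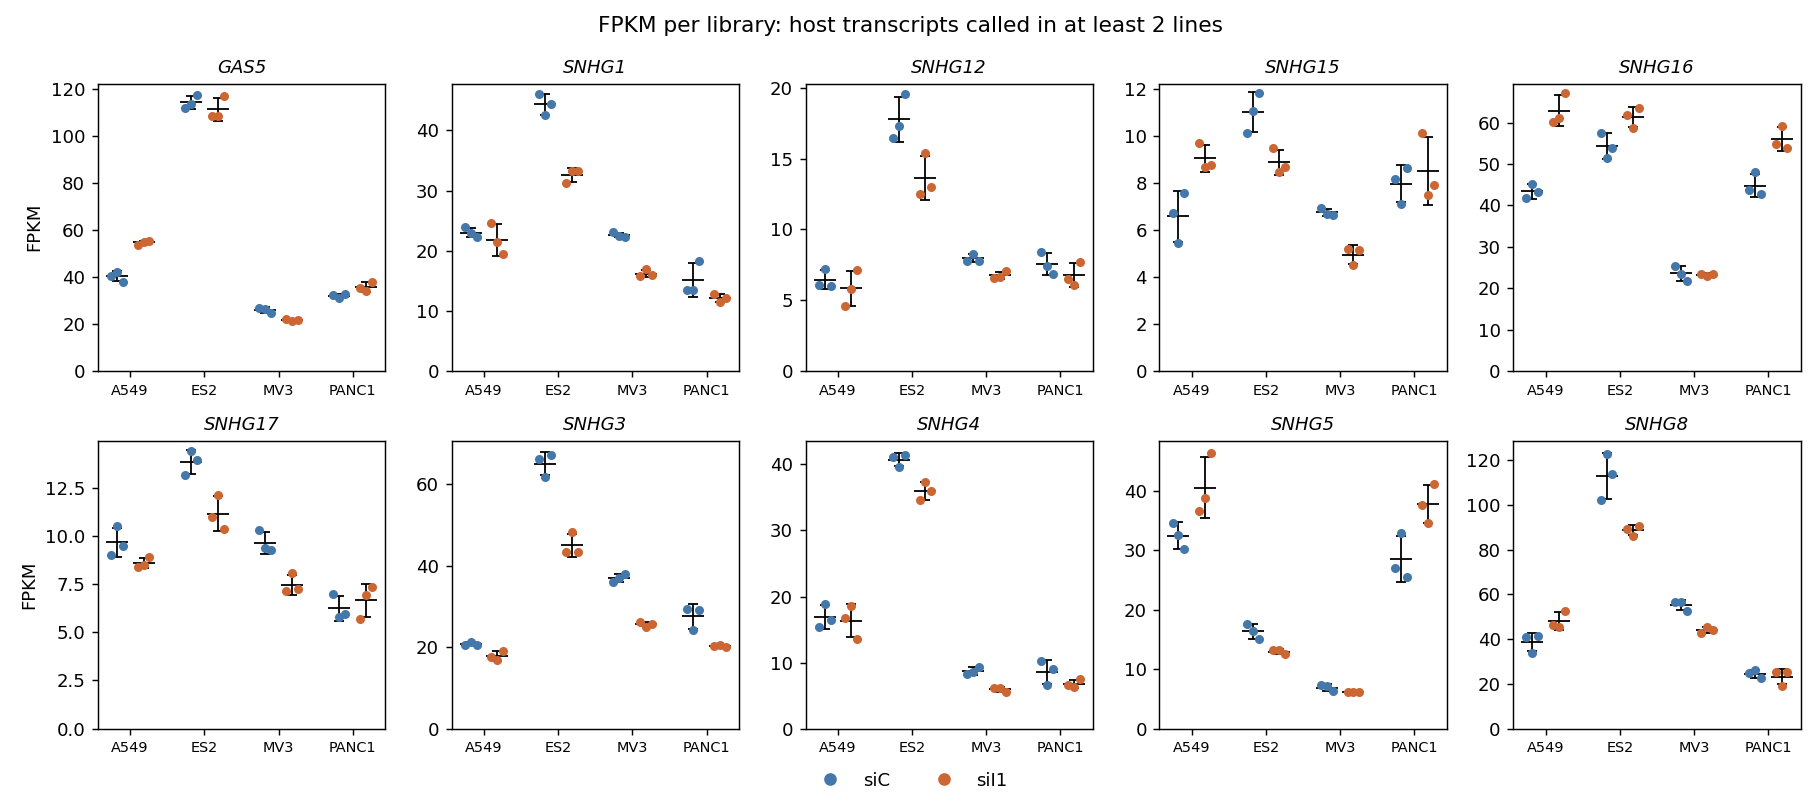
FPKM (linear axis from 0) of each library for the 10 host transcripts called in at least 2 lines, with siC in blue and siI1 in orange and black bars for the mean ± SD of 3 libraries. SNHG1 and SNHG3 sit lower in siI1 in ES2 and MV3, SNHG16 sits higher in A549 and PANC1, and GAS5 is higher in A549 and lower in MV3.

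DANCR, a host of SNORA26, fell in ES2, where it had 37.1, 33.2 and 32.8 FPKM in siC and 25.1, 23.5 and 23.5 in siI1 (-0.51 ± 0.06, limma adjusted p = 0.00285). All its siI1 libraries also lay below its siC libraries in A549 and MV3, where the log2 fold changes of -0.18 and -0.25 did not pass. SNHG7, which carries 2 SNORA17 snoRNAs, fell in MV3 from 14.1, 13.9 and 14.5 FPKM to 11.5, 12.1 and 11.5 (-0.27 ± 0.04, limma adjusted p = 0.00237), with FAM69B on the opposite strand of 30.3% of its exon bases. SNHG6, host of SNORD87, fell in MV3 from 35.3, 36.0 and 35.4 FPKM to 29.5, 30.8 and 31.6 (-0.21 ± 0.03, limma adjusted p = 0.00399). MCMDC2 lies opposite 58.9% of SNHG6 exon bases. Neither SNHG6 nor SNHG7 passed in another line. In A549, however, all SNHG6 siI1 libraries lay above all siC libraries (0.29 ± 0.07, limma adjusted p = 0.0503). There SNHG6 was called higher under 6 of 16 alternatives.

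SNHG16 and GAS5 rose in A549. SNHG16, host of 3 SNORD1 snoRNAs, had 41.8, 45.2 and 43.2 FPKM in A549 siC and 60.3, 61.1 and 67.2 in siI1, a 1.44-fold difference (0.53 ± 0.06 on the log2 scale, limma adjusted p = 0.00389). In PANC1 it had 43.6, 48.0 and 42.7 in siC and 54.8, 59.3 and 53.9 in siI1 (0.32 ± 0.07, limma adjusted p = 0.0173). All siI1 libraries of both lines, and also of ES2 (0.17 ± 0.06, limma adjusted p = 0.0711), lay above the siC libraries, and in MV3 they overlapped (-0.01 ± 0.06). The PANC1 call was lost without siC replicate 1, siI1 replicate 1 or siI1 replicate 2, with limma adjusted p up to 0.0695, and the A549 call held under each of 16 alternatives. When the PANC1 libraries were set to the same FPKM sum, the log2 fold change of SNHG16 was -0.43 there, and all genes then had a median of -0.68. A row of the other strand, AC015802.6, covers 28.5% of SNHG16 exon bases.

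GAS5, the growth arrest host with 11 snoRNAs in the RefSeq annotation, was called in both directions. In A549 it had 40.6, 42.3 and 38.0 FPKM in siC and 53.8, 55.0 and 55.2 in siI1, a 1.35-fold difference (0.44 ± 0.05, limma adjusted p = 0.00482). In MV3 it had 26.9, 26.5 and 24.7 in siC and 22.3, 21.2 and 21.6 in siI1 (-0.26 ± 0.04, limma adjusted p = 0.00491). The groups were apart in both lines, in opposite directions, and both calls held under each of the 16 alternatives. In ES2, where GAS5 ranked highest of the members, it had 112, 113 and 117 FPKM in siC and 108, 108 and 117 in siI1, with overlap (-0.04 ± 0.05). In PANC1 it had 32.3, 31.1 and 32.5 in siC and 35.2, 34.1 and 38.0 in siI1 (0.16 ± 0.06, limma adjusted p = 0.0951), apart but not past the threshold.

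SNHG5, host of the SNORD50 pair, was also called in both directions. It had 17.6, 16.5 and 15.0 FPKM in ES2 siC and 13.3, 13.2 and 12.5 in siI1 (-0.32 ± 0.07, limma adjusted p = 0.0192). In PANC1 it had 27.0, 33.0 and 25.6 in siC and 37.6, 34.7 and 41.1 in siI1 (0.40 ± 0.11, limma adjusted p = 0.0424). The groups did not overlap in A549 either, where siI1 libraries were higher (0.31 ± 0.10, limma adjusted p = 0.1004), nor in MV3, where they were lower (-0.16 ± 0.06, limma adjusted p = 0.105). The PANC1 call was lost under 8 of the 16 alternatives, among them without each single library other than siC replicate 2, and its sign turned under the same-FPKM-sum scaling (-0.34). The ES2 call was lost without siC replicate 2, siI1 replicate 2 or siI1 replicate 3 and with libraries set to the same FPKM sum, which gave the highest limma adjusted p (0.0918). On the same strand, AL589666.1 shares 7.48% of SNHG5 exon bases.

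ZFAS1, SNHG19 and SNHG25 were abundant members with no call. ZFAS1, host of 3 SNORD12 snoRNAs, had 31.5, 32.3 and 32.7 FPKM in A549 siC and 35.9, 35.2 and 34.0 in siI1, apart but by only 0.12 ± 0.05 on the log2 scale (limma adjusted p = 0.155). Its log2 fold change lay between -0.05 and 0.13 in the 4 lines. SNHG19, host of SNORD60, had 95.6, 95.4 and 107 FPKM in ES2 siC and 98.5, 90.0 and 106 in siI1, and the groups overlapped in all lines. SNHG19 is listed with a length of 342 bases, so that its high FPKM rested on 49 to 306 reads per library. SNHG25, listed with 278 bases, had 19.0, 23.6 and 27.4 FPKM in ES2 siC and 15.1, 19.0 and 16.2 in siI1 (-0.46 ± 0.15, limma adjusted p = 0.0702), from 32 to 55 reads, and 39.1% of its exon bases are those of SNORA50C.

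Among the low members, SNHG20 fell in PANC1 from 2.81 ± 0.268 to 1.90 ± 0.232 FPKM (-0.47 ± 0.12, limma adjusted p = 0.0344) and SNHG26 rose in ES2 from 4.92 ± 0.0674 to 5.83 ± 0.0777 (0.22 ± 0.06, limma adjusted p = 0.0393). Neither was stable. SNHG26 lost its call when any 1 ES2 library was left out, with limma adjusted p up to 0.184 over its alternatives, and SNHG20 lost its call without PANC1 siC replicate 3 (limma adjusted p = 0.105), and also without siC replicate 1, siI1 replicate 2 or siI1 replicate 3. SNHG9, SNHG10, SNHG11, SNHG14, SNHG18, SNHG21 and SNHG22 passed in no line. Their log2 fold changes reached 0.74 ± 0.24 for SNHG18 in ES2 (limma adjusted p = 0.0722, 20 to 63 reads per library) and 0.72 ± 0.36 for SNHG9 in PANC1 (limma adjusted p = 0.190, 9 to 28 reads). SNHG21 shares 72.9% of its exon bases with a SCARNA15 row on the same strand and is uncertain for that reason.

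The difference between lines was tested on the fold changes. Cochran's Q on the 4 fold changes of a gene, compared with an F distribution and with adjustment over 12816 genes tested in all lines, passed for 6 of the 23 members tested, while 28% of all genes passed. These were GAS5 (adjusted p of the Q test = 0.00821, from the limma fits), SNHG5 (0.0206), SNHG16 (0.0208), SNHG15 (0.0241), SNHG6 (0.0266) and SNHG8 (0.0266). All 6 had a positive log2 fold change in A549 and a negative one in MV3, by only 0.01 in the case of SNHG16. SNHG15 went from 0.44 in A549 to -0.41 in MV3 and SNHG8 from 0.30 to -0.32. The share of 6 of 23 is close to that of all genes. The count was 10 in a joint limma fit, 0 with the replicate number as a block (the numbers did not pair the libraries), 2 without A549 siC replicate 1, and 3 without A549 siC replicate 3 or A549 siI1 replicate 1.

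**Figure D3:**
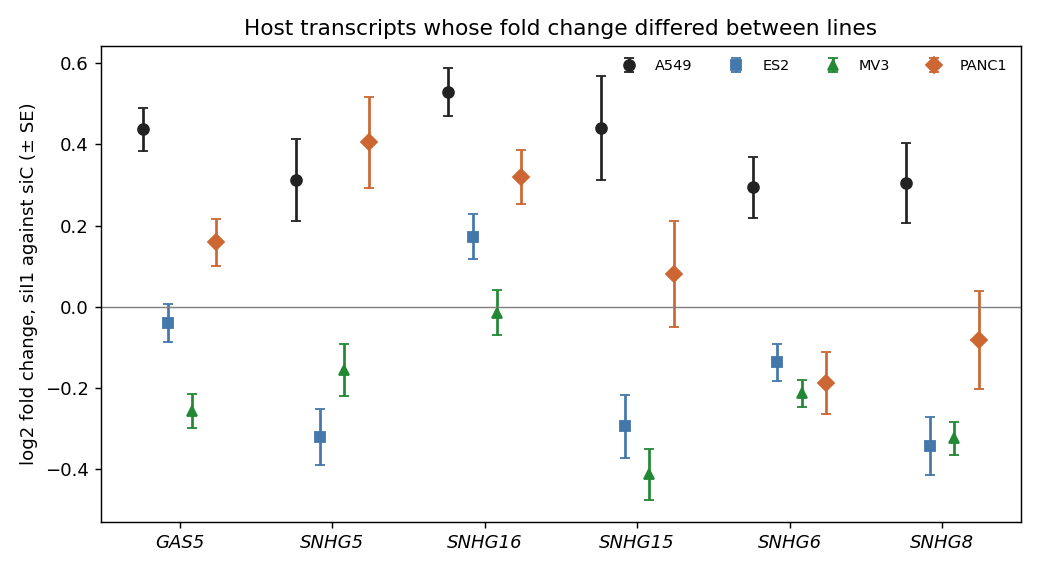
Log2 fold change ± SE (siI1 against siC, 3 libraries per group) in A549 (circles), ES2 (squares), MV3 (triangles) and PANC1 (diamonds) for the 6 host transcripts whose effect differed between lines. A549 lies above 0 for all 6, and MV3 lies below 0 for 5 of them by more than the SE, with SNHG16 at -0.01.

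Pairs of lines were compared in the joint fit, a choice made after the fold changes had been seen, with adjustment over all genes within each of the 6 pairs. The knockdown effect was lower in MV3 than in A549 for 8 of 23 members and higher for 0. Of all 12816 genes, 18.7% differed in either direction there, 1297 lower and 1095 higher. The effect in ES2 was lower than in A549 for 7 members and higher for 0, with 21.7% of all genes differing (1353 lower and 1424 higher). GAS5 showed the clearest difference, -0.69 ± 0.07 between MV3 and A549 (limma adjusted p = 9.05e-07). Between MV3 and ES2 GAS5 alone differed (-0.22 ± 0.07, limma adjusted p = 0.0490). That pair had 9.78% of all genes differing. The effect was lower in PANC1 than in A549 for 5 members and higher for 0, with 26.5% of all genes differing (1804 lower and 1597 higher). The 5 were GAS5 (-0.28), SNHG6 (-0.48), SNHG8 (-0.39), SNHG20 (-0.65) and SNHG26 (-0.79). PANC1 stood above ES2 for 5 of 23 members and below it for 1, SNHG26, where 32.7% of all genes differed (2032 above and 2164 below). PANC1 stood above MV3 for 5 of 23 and below it for 0, where 22.1% of all genes differed (1485 above and 1346 below). Counted in either direction, both member shares were at or below that of all genes. SNHG5 differed between PANC1 and ES2 (0.72 ± 0.14, limma adjusted p = 0.000459), and DANCR differed by 0.60 ± 0.14 (limma adjusted p = 0.00259).

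Other genes of the same biology were counted beside the hosts. Cytosolic ribosomal protein mRNAs, with the pyrimidine run counted above at 74 of 87 starts, rose for 47 of 85 tested in A549. In PANC1 58 of 85 rose, with 0 lower in both lines. In ES2 13 rose and 5 fell, and in MV3 0 rose and 18 fell. Of all genes tested, 5.93% rose and 7.83% fell in A549, and 11.3% and 13.4% in PANC1. The shares were 10.5% and 13% in ES2, and 16.3% and 19.5% in MV3. The 18 of 85 that fell in MV3 were thus near the share of all genes. The median log2 fold changes of the ribosomal protein mRNAs were 0.29 (A549), -0.01 (ES2), -0.08 (MV3) and 0.48 (PANC1). In PANC1 with libraries set to the same FPKM sum the direction turned, with 0 higher, 35 lower and a median of -0.27 against -0.68 for all genes. RPL26, a protein of the large subunit, rose in A549 from 86.2 to 122 FPKM (0.49 ± 0.08, limma adjusted p = 0.0108). RPL18, also of the large subunit, rose in PANC1 from 49.9 to 88.9 FPKM (0.84 ± 0.10, limma adjusted p = 0.00291).

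Among the genes for snoRNA-binding proteins, some fell and the others did not pass in ES2 and MV3, where 13% and 19.5% of all genes fell. Of 11 box C/D genes, which include the methyltransferase fibrillarin (FBL) and its partners NOP56 and NOP58, 5 fell and 0 rose in each of these lines, with 0 lower and 1 higher in A549, and 4 lower and 2 higher in PANC1. NOP56 fell in ES2 from 51.4 to 35.0 FPKM (-0.55 ± 0.05, limma adjusted p = 0.00134), and NOP58 in MV3 from 47.8 to 32.6 (-0.55 ± 0.03, limma adjusted p = 0.000190). Of 7 box H/ACA genes, 4 fell in ES2, 4 in MV3, 2 in PANC1 and 0 in A549, with 0 higher in each line. DKC1, the pseudouridine synthase, fell in MV3 from 26.4 to 17.5 FPKM (-0.58 ± 0.03, limma adjusted p = 0.000178). FBL itself rose in A549 from 85.2 to 119 FPKM (0.47 ± 0.07, limma adjusted p = 0.0102).

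Genes of nonsense-mediated decay were counted in the same way. Of 18 factors tested, 2 fell and 0 rose in A549, 5 fell and 1 rose in ES2, 9 fell and 1 rose in MV3, and 5 fell and 2 rose in PANC1, beside the shares of all genes given above for each line. MAGOHB, a core protein of the exon junction complex, fell in MV3 from 4.10 to 2.95 FPKM (-0.41 ± 0.08, limma adjusted p = 0.00721). Of 10 mRNAs known as substrates of this decay, 1 rose and 2 fell in A549, 1 rose and 4 fell in ES2, 2 rose and 3 fell in MV3, and 5 rose and 1 fell in PANC1. MAP3K14, one of them and the kinase of the non-canonical NF-kB pathway, rose in ES2 from 5.08 to 11.7 FPKM (1.13 ± 0.07, limma adjusted p = 0.000336). ATF4, another and the transcription factor of the stress response, fell in MV3 from 72.4 to 47.1 (-0.61 ± 0.05, limma adjusted p = 0.000359). Of 15 other 5'TOP mRNAs tested, 7 rose and 0 fell in A549, 4 rose and 2 fell in ES2, 2 rose and 3 fell in MV3, and 5 rose and 3 fell in PANC1. Protein-coding genes with a snoRNA inside them, ribosomal proteins left out, fell more often than they rose in each line, as did all genes tested, with 23 lower and 19 higher of 201 tested in A549 and 74 lower and 26 higher of 187 in MV3, where 7.83% and 5.93% of all genes in A549 and 19.5% and 16.3% in MV3 were lower and higher. Their medians lay between -0.11 and -0.07. The lists are not separate: this one also holds NOP56, NOP58 and DKC1. RCC1, MATR3.1 and AL589666.1, which share exon bases with SNHG3, SNHG4 and SNHG5, are in it too.

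**Figure D4:**
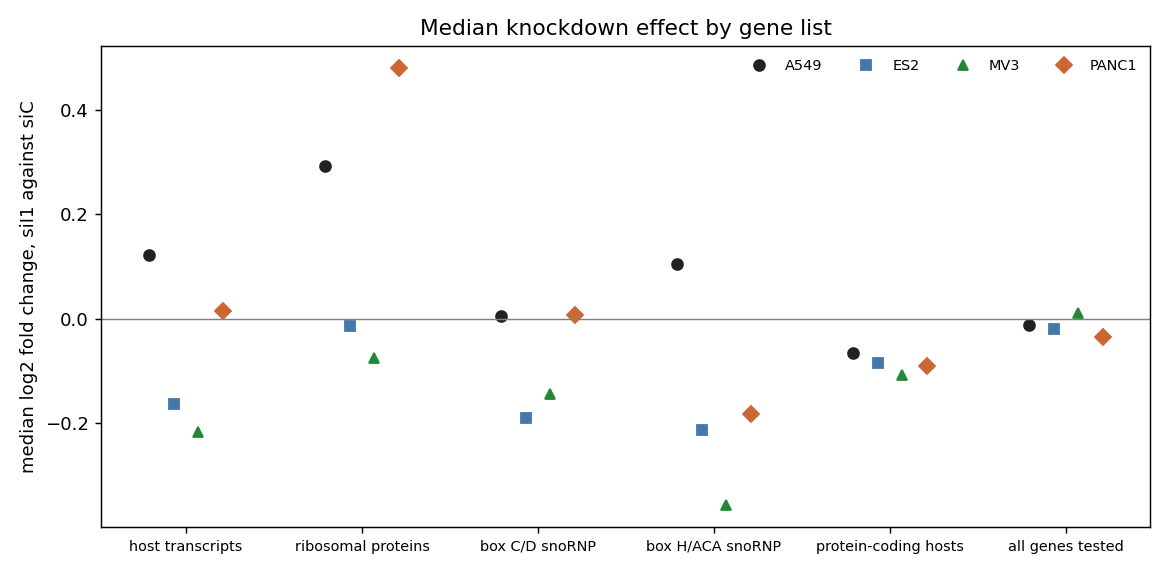
Median log2 fold change (siI1 against siC) of the genes tested in each list, in A549 (circles), ES2 (squares), MV3 (triangles) and PANC1 (diamonds); no error is drawn because genes are not replicates. The host transcripts lie at 0.12 in A549 and at -0.16 and -0.22 in ES2 and MV3, and ribosomal protein mRNAs at 0.29 and 0.48 in A549 and PANC1.

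RefSeq places 140 snoRNAs and Cajal body RNAs inside the spans of the 25 hosts, 83 of them in SNHG14, and 121 have a row of their own in the files. The rows rest on few reads, and the cause was not tested: 11 to 13 per line reached a mean of 10 reads per library, and 75 to 103 were listed at 0 reads in all 6 libraries. Among those with at least 10 reads, 0 of 12 were called in A549, 4 of 13 fell in ES2 and 6 of 11 fell in MV3. In PANC1, 1 of 11 fell and 2 rose. Of all genes tested, 13% fell in ES2, 19.5% in MV3 and 13.4% in PANC1, where 11.3% rose. Most snoRNA rows are short, and nearly all unchanged genes called in the simulation described under the processing were short too. The snoRNA calls are given for the main test only, without the alternatives. The 3 snoRNAs of ZFAS1 are printed from hg38 on the plus strand, with RefSeq spans, because 2 of them moved where their host was not called. The third, SNORD12, did not reach a mean of 10 reads in any line, so no change is given for it. Capitals mark the box C letters TGATGA in the first part of the RNA and the box D letters CTGA near its end. SNORD12C lies at chr20:49278945-49279023, SNORD12B at chr20:49280313-49280415 and SNORD12 at chr20:49280683-49280772.
SNORD12C: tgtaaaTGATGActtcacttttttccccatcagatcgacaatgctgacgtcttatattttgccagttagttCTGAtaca
SNORD12B: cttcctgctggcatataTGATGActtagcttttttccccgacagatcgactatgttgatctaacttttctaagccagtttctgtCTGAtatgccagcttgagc
SNORD12: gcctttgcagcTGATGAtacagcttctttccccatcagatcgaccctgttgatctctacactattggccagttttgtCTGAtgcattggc

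SNORD12B had 85.6, 75.4 and 91.4 FPKM in ES2 siC and 53.5, 47.2 and 46.8 in siI1 (-0.77 ± 0.09, limma adjusted p = 0.00217), from 31 to 60 reads per library. In MV3 it had 46.0, 37.9 and 38.95 in siC and 28.5, 30.4 and 28.0 in siI1 (-0.49 ± 0.08, limma adjusted p = 0.00425). In PANC1 it fell from 42.8 ± 8.16 to 19.9 ± 4.88 (-1.10 ± 0.22, limma adjusted p = 0.0144), and in A549, with 10 to 14 reads, the libraries overlapped. SNORD12C fell in ES2 from 94.5, 82.2 and 96.6 to 44.4, 31.2 and 59.8 FPKM (-1.05 ± 0.22, limma adjusted p = 0.0193) and in MV3 from 58.2, 46.6 and 49.1 to 21.3, 29.9 and 26.9 (-0.97 ± 0.14, limma adjusted p = 0.00280). The ES2 and MV3 groups did not overlap for either snoRNA, while ZFAS1 changed by -0.02 and -0.05 in these lines. The difference between snoRNA and host was not tested, and SNORD12B overlaps an annotated ZFAS1 exon, so that its reads may be shared with the host.

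**Figure D5:**
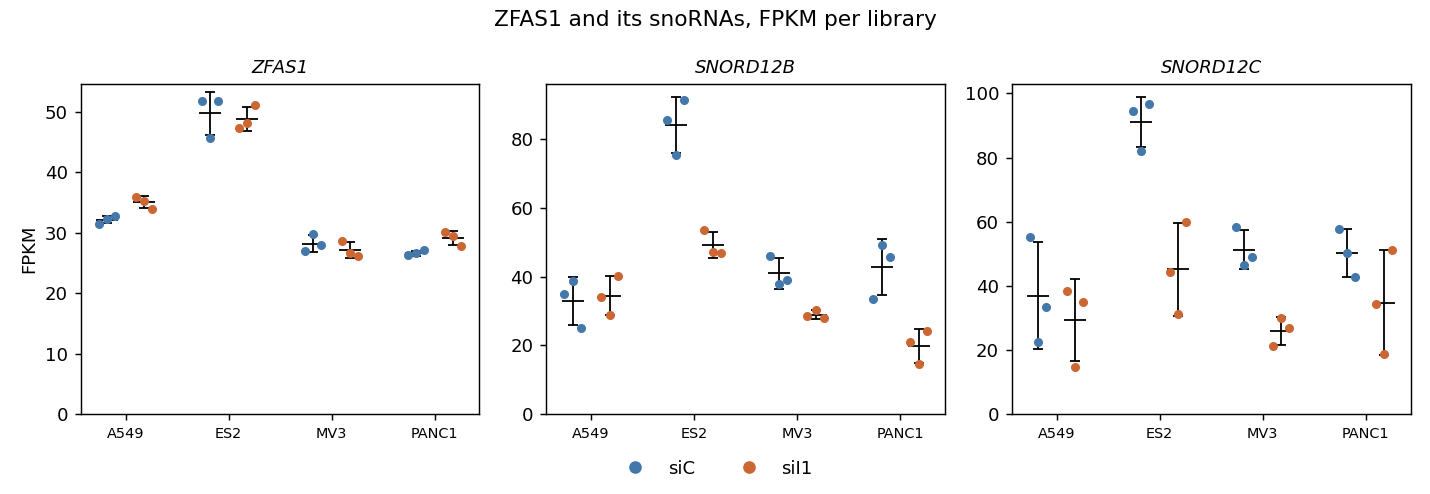
FPKM (linear axes from 0) of each library for ZFAS1 and for SNORD12B and SNORD12C, with siC in blue, siI1 in orange and black bars for the mean ± SD of 3 libraries. ZFAS1 stays near its siC level in ES2 and MV3, where both snoRNAs are lower in all 3 siI1 libraries.

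For SNORA73B, the best covered of the snoRNAs with 484 to 4455 reads per library, snoRNA and host fell together in 2 lines. It went from 820 ± 125 to 580 ± 70.9 FPKM in ES2 (-0.49 ± 0.14, limma adjusted p = 0.0469) and from 1389 ± 61.6 to 973 ± 156 in MV3 (-0.53 ± 0.12, limma adjusted p = 0.0185), beside -0.53 and -0.52 for SNHG3. In PANC1 it was at 1038 ± 108 and 1036 ± 152 FPKM (-0.01 ± 0.14), where SNHG3 fell by 0.42 on the log2 scale. SCARNA13, the Cajal body RNA of SNHG10, rose in PANC1 from 588 ± 101 to 939 ± 147 FPKM (0.68 ± 0.17, limma adjusted p = 0.0296), beside 0.41 for SNHG10, which did not pass (limma adjusted p = 0.0687). The PANC1 siI1 libraries are those with the higher FPKM sums. The snoRNAs of SNHG17 and SNHG4 gave the other calls. In MV3, SNORA71A fell by 0.72 and SNORA71C by 0.91 on the log2 scale (limma adjusted p = 0.00107 and 0.00434), beside -0.35 for SNHG17. SNORA71D did not pass there (-0.18, limma adjusted p = 0.462) and rose in PANC1 (1.24, limma adjusted p = 0.0183, 15 to 48 reads). In ES2, where SNHG17 also fell (-0.30), the groups overlapped for SNORA71A (0.22), SNORA71C (-0.05) and SNORA71D (-0.13). SNORA74D fell in MV3 (-0.75, limma adjusted p = 0.00472) and SNORA74A in ES2 (-0.81, limma adjusted p = 0.0300), both with SNHG4. The SNORA71 and SNORA74 copies are closely related RNAs, and reads may have been split between them.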

How the data were processed

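The authors trimmed reads with cutadapt 1.14, aligned them to hg38 with HISAT2 2.1.0 and SAMtools 1.5, counted reads per gene with featureCounts 1.5.3 and tested each line with edgeR 3.30.3; the strand setting of the counting is not given in the sources used here. The deposited values are FPKM scaled with TMM factors by the authors, a unit worked out from the values: multiplied by gene length, 100% of values came out as whole multiples of 1 step per library (tolerance 0.001), which gave the reads. The length column and the authors' log2 fold change, p-value and FDR columns are also in the files, and the latter were not used.

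In each line, genes averaging 0.5 FPKM or more across its 6 libraries entered limma 3.58.1 (R 4.3.3, with a trend) on log2(FPKM + 0.5), siI1 against siC, with Benjamini-Hochberg adjustment and a threshold of 0.05. Members and gene lists were chosen with earlier results of these data known. All members are named; those called in at least 2 lines, or averaging 20 FPKM or more in a line, are given by library. Of each list, the genes named are among those with the lowest or highest fold change called in a line, and the snoRNAs shown were chosen after their values were seen. Per line 10 alternatives and the leaving out of each of 6 libraries were run, 16 in all; the Q test was run with 4 alternatives and without each of the 24 libraries, and the 6 pairs of lines, the Q test without each library and the 10-read filter were added after the fold changes were seen.

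Replicates differed by more than sampling noise (chi-square per gene 1.54 to 15.1 over 24 pairs). Deviations of same-numbered siC and siI1 libraries correlated between -0.0562 and 0.0711, so numbers were not taken to pair them. On simulated data with 200 genes changed 1.5-fold, the test recovered 1 (A549), 12 (ES2), 66 (MV3) and 23 (PANC1), with 16, 5, 10 and 12 other genes called; most changes described here are of this size or smaller. At 2-fold, tried after that result, it recovered 107, 126, 154 and 138, with 27, 31, 7 and 19 others. Nearly all of these others were shorter than 250 bases (0 to 2 per line were not), so a filter on 10 reads was added. The simulation changed far fewer genes than were called in the data and used a fixed dispersion. Its recoveries and other calls are therefore not rates for the real tests.

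snoRNAs were assigned to hosts by RefSeq spans (GRCh38.p14) because GENCODE 44 has no rows for those of GAS5; the RefSeq table has no strand, so strand was not checked. Shares of exon bases are over all GENCODE 44 exons of a member, which can exceed the length listed for it. Starts were first counted in RefSeq and then in GENCODE 44, after the first count had been seen. A 5-letter word picked from the members' own starts, after a count of runs had been seen, was also counted and is not reported, since the members chose it. Tables were handled with pandas 2.3.3 in Python 3.11.15, and figures drawn with matplotlib 3.10.9. The start sequence of 1 member and 1 gene of a list are not reported here.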

Additional observations from a re-analysis of the deposited data

Results flagged for a closer look

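For 6 host transcripts the knockdown effect differed between the 4 lines by Cochran's Q on the limma fits, adjusted over all genes tested in all lines. The adjusted p was 0.00821 for GAS5, 0.0206 for SNHG5, 0.0208 for SNHG16, 0.0241 for SNHG15, 0.0266 for SNHG6 and 0.0266 for SNHG8. The log2 fold change ranged over 0.69 for GAS5, 0.72 for SNHG5, 0.54 for SNHG16, 0.85 for SNHG15, 0.51 for SNHG6 and 0.65 for SNHG8. In PANC1 the line and the harvest time of 96 h cannot be told apart. Of all genes 28% passed the same test.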

How the results depend on the processing

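Of the 26 calls of a member in a line, 15 kept direction and side of the threshold under every alternative run, and 68 of 416 repeats lost the call. With libraries set to the same FPKM sum, members lower in PANC1 went from 2 to 19 and higher from 2 to 0, lower in ES2 from 9 to 4 and higher from 1 to 2. Under that scaling the PANC1 log2 fold change turned to -0.43 for SNHG16, -0.62 for ZFAS1, -0.62 for SNHG17, -0.34 for SNHG5, -0.61 for DANCR, -0.63 for SNHG15, -0.67 for SNHG7, -0.59 for GAS5 and -0.50 for SNHG19. The replicate block gave 4 lower and 0 higher in ES2, 1 and 1 in PANC1, and 0 members differing between lines (6 without it); the numbers did not pair the samples. No filter gave 0 higher in ES2 and 1 lower and 1 higher in PANC1. Without TMM factors 1 was higher in MV3 and 1 in PANC1. With voom on the recovered reads 5 were higher in A549 and 2 in ES2, and with the 10-read filter, added after seeing the data, 6 and 2. The joint fit gave 10 members differing between lines. With 1 library left out, counts ranged from 3 to 8 lower and 0 to 1 higher in ES2, from 0 to 3 lower and 0 to 2 higher in PANC1, from 10 to 11 lower in MV3, stayed at 2 higher in A549, and from 2 to 6 members differed between lines. The cause of these shifts was not tested. A549 had the fewest reads per library, and its count also moved with the filter and the model at unchanged depth. Members not called there are not shown to be unaffected.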
